A study of Mus musculus with 25 samples.

Results

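The comparison set group 1 innate lymphoid cells of the fetal liver (FL G1-ILCs) against the IL-7 receptor-negative type 1 innate lymphoid cells of the adult liver (AL 7R- ILC1s), in RNA sequenced from sorted cells of C57BL/6 wild type mice. FL G1-ILCs were taken from E18.5 livers as CD3-negative, NK1.1- and NKp46-positive cells with intermediate CD49a and CD49b by the labels (the study's text calls their CD49a positive), and AL 7R- ILC1s from livers of mice aged 8 weeks as CD3-negative, NK1.1- and NKp46-positive, CD49a-positive cells with low CD49b and no IL-7R. These groups hold 8 of the 25 libraries of the series, 4 of each. Libraries 2 and 3 of FL G1-ILCs were nearly identical, so their counts were summed and counted once, which leaves 7 of 24 samples, 3 of FL G1-ILCs and 4 of AL 7R- ILC1s. In each list of values below, the FL G1-ILC samples stand in the order 1, 2 with 3, and 4, and the AL 7R- ILC1 samples in the order 1 to 4. The comparison asks what separates the fetal cells from the adult liver cells that, like them, lack IL-7R. Age, and with it the sort gate and the handling of the tissue (adult liver leukocytes were passed over Percoll, which is not described for fetal liver), differed together and cannot be told apart. The study counts 4 biological replicates of each group, while FL libraries 2 and 3 are counted once here. The sources do not say whether each library came from separate animals or pools, nor their sex, so that p-values measure only the spread between libraries.

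Group 1 innate lymphoid cells are lymphocytes without rearranged antigen receptors that make IFN-γ and depend on the transcription factor T-bet and on IL-15. They comprise circulating NK cells, which also use the factor Eomes, and ILC1s, which live in tissues, carry CD49a and CXCR6 and can kill through TRAIL and granzymes. The liver is an organ of blood formation before birth and a home of resident ILC1s afterwards. Because RNA of whole sorted populations was measured, fewer cells of a kind and less RNA per cell cannot be told apart.

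Between 2302643 and 5453714 reads were assigned to genes in the FL G1-ILC libraries, and between 3752189 and 6611584 in the AL 7R- ILC1 libraries. The chi-square per degree of freedom over genes was 1.17 between FL libraries 2 and 3, against 3.38 to 10.7 for the 28 other pairs of replicates in the series. The share of counts in ribosomal protein genes was 2.37 to 2.52% in FL G1-ILCs and 1.22 to 1.55% in AL 7R- ILC1s, and the share in mitochondrial genes was 0.715 to 0.798% and 0.513 to 0.623%. A gene with at least 1 count was found 16791 to 19677 times per FL G1-ILC library and 22180 to 22639 times per AL 7R- ILC1 library. How reads that match several genes were counted is not given in the sources used here, so that levels within families of near-identical genes (granzymes, Ly49, IFITM, MHC class I, *Bcl2a1b* and its copies) and of overlapping genes are uncertain. Gene positions are those of GENCODE M21 on GRCm38. Levels are given in CPM, the count divided by the TMM-scaled library size in units of 1000000, and differences as log2 fold changes of FL G1-ILCs over AL 7R- ILC1s.

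The fetal and adult cells differed over much of the transcriptome. Of 13424 genes tested, 3328 (24.8%) were higher in FL G1-ILCs and 3075 (22.9%) were lower at an adjusted p under 0.05 in edgeR's quasi-likelihood test, 6403 (47.7%) in all. With a change of at least 2-fold as a further condition, 1622 genes (12.1%) were higher and 1431 (10.7%) lower. A change of at least 4-fold was seen for 694 higher and 510 lower genes, and the median log2 fold change over all genes was -0.05. The samples of the groups did not overlap for 3486 tested genes that were higher and 3133 that were lower in FL G1-ILCs. The counts of gene lists and the statements of no overlap below are to be read against these values. The plot of fold change against level shows that large differences occurred over most levels of expression.

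**Figure D1:**
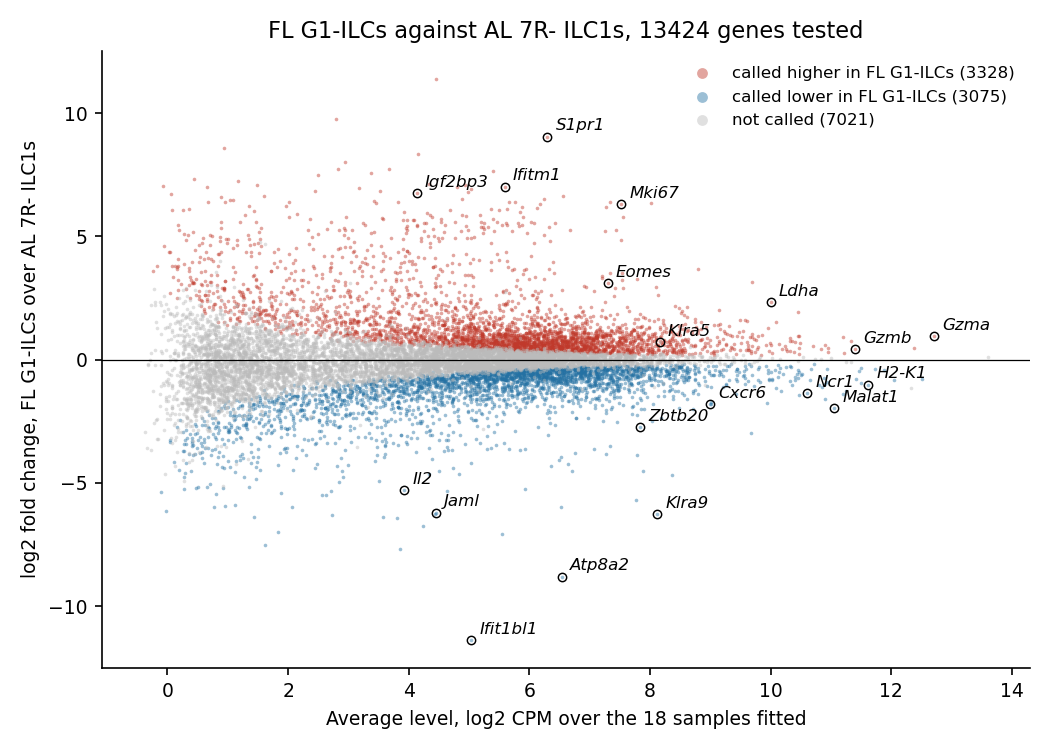
Each point is 1 of 13424 genes, with its average level over the 18 samples of the fit (log2 CPM) on the horizontal axis and its log2 fold change of FL G1-ILCs over AL 7R- ILC1s on the vertical axis. The 3328 genes called higher are red, the 3075 called lower are blue and the rest are grey, and circles mark named genes between *S1pr1* at 9.04 and *Ifit1bl1* at -11.37, a fitted value that depends on the prior count since *Ifit1bl1* had no fetal count.

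The genes of the sort markers and of group 1 identity were read first. *Ncr1*, which encodes NKp46, had 654, 648 and 619 CPM in FL G1-ILCs, against 1533, 1771, 1683 and 1582 CPM in AL 7R- ILC1s. *Klrb1c*, which encodes NK1.1, had 988, 1069 and 1061 CPM in FL G1-ILCs, against 2197, 1962, 2104 and 1998 CPM in AL 7R- ILC1s, and *Itga1*, which encodes CD49a, had 288, 213 and 265 CPM in FL G1-ILCs, against 655, 779.6, 779.6 and 656 CPM in AL 7R- ILC1s. All 3 were lower in FL G1-ILCs, with log2 fold changes of -1.36 (standard error 0.07, adjusted p = 6.71e-13), -0.99 (standard error 0.07, adjusted p = 4.7e-11) and -1.49 (standard error 0.28, adjusted p = 0.00064). These proteins also set the gates, and the part of the gate in these differences cannot be told apart. *Tbx21*, which encodes T-bet, stood at 636 ± 22 CPM in FL G1-ILCs and 700.4 ± 70.2 CPM in AL 7R- ILC1s (SD, n = 3 and 4) and was not called (-0.14, adjusted p = 0.142), though it was without FL sample 2 with 3 (-0.23, adjusted p = 0.0427). *Il2rb*, which encodes the receptor chain shared by IL-2 and IL-15, was slightly lower (log2 fold change -0.40, standard error 0.06, adjusted p = 1.1e-05). *Il7r* was low in both groups, with 0.399, 0.46 and 1.84 CPM in FL G1-ILCs, against 1.06, 1.07, 0.613 and 4.53 CPM in AL 7R- ILC1s. Both groups thus had the group 1 markers and little *Il7r* RNA, against means of 576 CPM in AL 7R+ ILC1s and 1191 CPM in BM iILC1s. Both were sorted on NK1.1 and NKp46, and AL 7R- and AL 7R+ ILC1s also on IL-7R. For those groups the sort itself set these outcomes in part.

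Markers of other cells that a liver sort could hold differed in level between lists and between groups. The 14 neutrophil and myeloid precursor markers summed to 78.3, 1.23 and 399 CPM in FL G1-ILCs, against 1.33 to 2.65 CPM in AL 7R- ILC1s. The high values came from FL G1-ILC samples 1 and 4 alone. *Ngp*, a neutrophil granule gene, had 17.9, 0.153 and 182 CPM in FL G1-ILCs, against 0, 0, 0 and 0 CPM in AL 7R- ILC1s. *Ltf*, which encodes lactoferrin, had 12.6, 0.153 and 98.7 CPM in FL G1-ILCs, against 0.796, 0.717, 0.153 and 0 CPM in AL 7R- ILC1s. The calprotectin genes *S100a8* and *S100a9* had 16.9, 0 and 42.8 and 15.1, 0.306 and 48.5 CPM in FL G1-ILCs, while the highest AL 7R- ILC1 values were 0.265 and 0 CPM. These 4 of 6 tested members were called higher. Within this comparison they could pass the filter only through FL samples 1 and 4, where they are high, so the calls only describe them. When only the groups compared were fitted, no member of the list passed the filter, with 0 higher and 0 lower. Without FL sample 4 the adjusted p was 0.144 for *Ngp*, 0.0815 for *S100a9* and 0.191 for *Ltf*, without FL sample 1 it was 0.0513 for *Ngp* and 0.0708 for *S100a9*, and without any 1 AL 7R- ILC1 sample it was 0.0524 to 0.0722 for these 3 genes. *S100a8* lost its call without AL 7R- ILC1 sample 1 (adjusted p = 0.0542). The list's count of higher genes was 2 without FL sample 1, 1 without FL sample 4 and 5 without FL sample 2 with 3. It was 0 without AL 7R- ILC1 sample 1, and 1 without any other AL 7R- ILC1 sample. Erythroid markers summed to 605 to 802 CPM in FL G1-ILCs and 216 to 698 CPM in AL 7R- ILC1s. Of 13 tested members 7 were higher, 4 without FL sample 4 and 2 when only the 2 groups were fitted. The list's median was 1.24, and 0.03 without FL sample 2 with 3. Most of the sum was *Car2*, a carbonic anhydrase gene that is not confined to red cells, at 561 ± 16 CPM in FL G1-ILCs and 237 ± 24.2 CPM in AL 7R- ILC1s (SD, n = 3 and 4). *Hemgn*, a gene of red cell precursors, had 4.78, 8.73 and 13.1 CPM in FL G1-ILCs, against 0.796, 0, 0 and 0.267 CPM in AL 7R- ILC1s, while the globin gene *Hba-a1* had 16.3, 103 and 70.6 CPM in FL G1-ILCs, against 0, 73.5, 177 and 0 CPM in AL 7R- ILC1s. Macrophage and monocyte markers summed to 320 to 403 CPM in FL G1-ILCs and 70.03 to 229.9 CPM in AL 7R- ILC1s. Of 15 tested members 1, *Ccr2*, was called higher, which group 1 cells can also make. Without FL sample 2 with 3 the list had 1 higher and 3 lower, without FL sample 1 or 4 it had 2 higher, and without AL 7R- ILC1 sample 4 it had 3 higher. Of 14 hepatocyte markers, 11, *Alb* among them, were below the filter, and the sum was 17.2 to 21.6 CPM in FL G1-ILCs and 12.9 to 15.2 CPM in AL 7R- ILC1s. B cell markers summed to 296 to 334 CPM in FL G1-ILCs and 447 to 534 CPM in AL 7R- ILC1s, most of it *Ighm*. This immunoglobulin μ chain gene had 282 ± 19.7 CPM in FL G1-ILCs and 495 ± 40.3 CPM in AL 7R- ILC1s (SD, n = 3 and 4). Of 10 tested B cell markers, 3 were higher and 1 lower, with 0 higher without FL sample 4 and 1 higher without FL sample 1 or AL 7R- ILC1 sample 3. T cell markers summed to 1246 to 1313 CPM in FL G1-ILCs and 1565 to 1734 CPM in AL 7R- ILC1s. Most of it was *Trbc1* and *Trbc2*, constant genes of the T cell receptor β locus, which averaged 694 and 507 CPM in FL G1-ILCs. Of 11 tested T cell markers, 1 was higher and 4 lower. Dendritic cell markers summed to 91.3 to 158 CPM in FL G1-ILCs and 565 to 665 CPM in AL 7R- ILC1s, most of it *Itgax*. Of 9 tested, 0 were higher and 3 lower, and 1 was lower without FL sample 1 or 4 or AL 7R- ILC1 sample 2 or 3. ILC3 markers, of which 0 of 5 were called, summed to 9.89 to 17.3 CPM in FL G1-ILCs and 10.1 to 13.5 CPM in AL 7R- ILC1s. Stem and progenitor cell markers summed to 241 to 265 CPM in FL G1-ILCs and 297 to 348 CPM in AL 7R- ILC1s, with 2 of 4 tested higher and 1 lower. Sums of ILC2 markers were 143 to 169 and 199.5 to 233 CPM, and of endothelium and stellate cell markers 109 to 131 and 84.9 to 96.6 CPM. Mast cell and megakaryocyte markers reached at most 8.26 and 7.05 CPM in any sample of either group. The part of such cells in the differences below was not tested beyond the fits that leave out samples. Without FL samples 1 and 4 the count of higher genes was 2379, and of lower genes 1768, from a fit with a single FL sample whose spread is taken from the other groups.

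**Figure D2:**
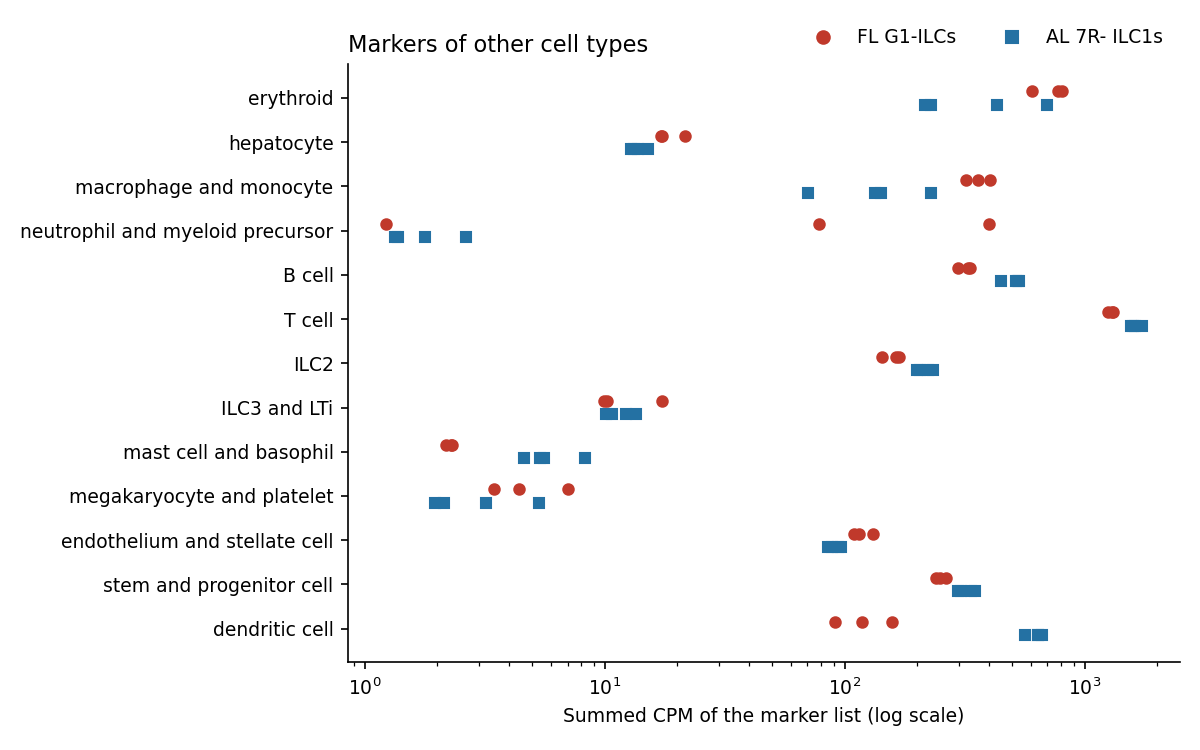
Summed CPM (log scale) of each list of markers of other cell types in the 3 FL G1-ILC samples (red circles) and the 4 AL 7R- ILC1 samples (blue squares). Neutrophil and myeloid precursor markers spread from 1.23 to 399 CPM over FL G1-ILCs and lay between 1.33 and 2.65 CPM in AL 7R- ILC1s.

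Nearly all genes of cell division were higher in FL G1-ILCs. Of 54 mitosis genes, 53 were higher in FL G1-ILCs and 1 was lower, with a median log2 fold change of 5.55, and all 41 DNA replication genes were higher, with a median of 2.52. The summed level of the mitosis genes was 12140 ± 605 CPM in FL G1-ILCs (SD, n = 3) and 654 ± 124 CPM in AL 7R- ILC1s (SD, n = 4), and that of the replication genes was 10440 ± 745 CPM in FL G1-ILCs (SD, n = 3) and 2028 ± 116 CPM in AL 7R- ILC1s (SD, n = 4). *Mki67* (ENSMUSG00000031004, chromosome 7 from 135689784 to 135716361, minus strand), which encodes the Ki-67 antigen of cycling cells, had 847, 742 and 817 CPM in FL G1-ILCs, against 11.9, 1.07, 19.8 and 6.66 CPM in AL 7R- ILC1s. The fetal samples lay close together and the adult ones spread more than 10-fold at a low level, with sample 2 lowest and sample 3 highest. *Top2a* (ENSMUSG00000020914, chromosome 11 from 98992943 to 99024189, minus strand), whose topoisomerase untangles chromosomes, had 1158, 951 and 1160 CPM in FL G1-ILCs, against 11.4, 8.24, 27.3 and 2.93 CPM in AL 7R- ILC1s. *Plk1* (ENSMUSG00000030867, chromosome 7 from 122159439 to 122169873, plus strand), a kinase of mitotic entry, had 187, 172 and 207 CPM in FL G1-ILCs, against 0.796, 1.25, 0.92 and 0.533 CPM in AL 7R- ILC1s, the largest change of the list at 7.65 (standard error 0.77, adjusted p = 1.73e-06). Cyclin B1 (*Ccnb1*) and cyclin A2 (*Ccna2*), the partners of CDK1, rose by 6.41 (standard error 0.37, adjusted p = 3.39e-11) and 6.14 (standard error 0.68, adjusted p = 6.75e-06). The spindle checkpoint kinase gene *Bub1*, the chromosomal passenger genes *Aurkb* and *Birc5*, the spindle motor gene *Kif11* and the spindle gene *Nusap1* had log2 fold changes of 6.92, 6.39, 6.64, 6.31 and 6.53, with adjusted p of 1.65e-06 to 6.75e-06. *Pttg1*, which encodes securin, was the exception, with 38.9, 34.8 and 31.1 CPM in FL G1-ILCs, against 99.2, 85.1, 67.2 and 75.1 CPM in AL 7R- ILC1s (log2 fold change -1.22, standard error 0.15, adjusted p = 2.6e-07). Adult sample 3 had the highest summed level of mitosis genes, and without it the log2 fold changes were larger, at 7.06 for *Mki67*, 7.16 for *Top2a*, 7.53 for *Ccna2*, 8.26 for *Birc5*, 7.44 for *Kif11* and 7.83 for *Nusap1*, with a list median of 6.32. Without adult sample 1 they were 7.69 for *Bub1* and 7.01 for *Aurkb*. In each of 20 other fits, leave-outs included, 53 mitosis genes were higher and 1 lower, and 41 replication genes were higher.

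Among replication genes, the helicase subunit gene *Mcm3* (ENSMUSG00000041859, chromosome 1 from 20802968 to 20820312, minus strand) had 673, 599.8 and 541 CPM in FL G1-ILCs, against 72.95, 48.2, 80.8 and 55.96 CPM in AL 7R- ILC1s (log2 fold change 3.23, standard error 0.27, adjusted p = 1.84e-07). *Mcm6* (ENSMUSG00000026355, chromosome 1 from 128331590 to 128359664, minus strand), another subunit of it, had 1008, 926 and 862 CPM in FL G1-ILCs, against 251, 216, 198 and 194 CPM in AL 7R- ILC1s (log2 fold change 2.12, standard error 0.18, adjusted p = 9.05e-08). Both had RNA in every adult sample. *Pcna*, the polymerase clamp gene, rose by 1.93 (standard error 0.17, adjusted p = 6.56e-09). *Rrm2*, a subunit of ribonucleotide reductase, had the largest change of the list, with 769, 602 and 716 CPM in FL G1-ILCs, against 9.29, 3.40, 14.4 and 4.53 CPM in AL 7R- ILC1s. The origin licensing and firing genes *Cdc6* and *Mcm10* had log2 fold changes of 4.97 (adjusted p = 3.05e-05) and 4.72 (adjusted p = 2.17e-05).

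The promoters of these genes are shown because the members move together and because promoters of mitotic and replication genes are known to carry different elements, the cell cycle genes homology region (CHR) in the first case and E2F sites in the second. RefSeq promoters of GRCm38.p6 run from 250 bases before to 50 after the start, and 9440 of the 13424 genes tested matched one by symbol (the first listed start was used). The CHR was searched as TTTGAA on both strands, and a promoter counts once however many matches it holds. Of the mitosis genes 34 of 46 promoters (73.9%) held it, of the replication genes 5 of 34 promoters (14.7%), of all genes tested 1173 of 9440 promoters (12.4%) and of all genes with a promoter 4893 of 27025 promoters (18.1%). The E2F site was searched as TTTCCCGC, TTTCGCGC, TTTGCCGC and TTTGGCGC on both strands, and words may overlap, as they do in *Mcm6*. Of the replication genes 12 of 34 promoters (35.3%) held it, of the mitosis genes 4 of 46 promoters (8.7%), of all genes tested 407 of 9440 promoters (4.31%) and of all genes with a promoter 626 of 27025 promoters (2.32%). The CCAAT box, searched as CCAAT on both strands, was in 35 of 46 promoters (76.1%) of mitosis genes, 21 of 34 promoters (61.8%) of replication genes and 3710 of 9440 promoters (39.3%) of all genes tested. Of *Plk1* (chr7:122159185-122159484, plus strand), *Top2a* (chr11:99024140-99024439, minus strand) and *Mki67* (chr7:135716330-135716629, minus strand), capitals mark the CHR on either strand.
Plk1: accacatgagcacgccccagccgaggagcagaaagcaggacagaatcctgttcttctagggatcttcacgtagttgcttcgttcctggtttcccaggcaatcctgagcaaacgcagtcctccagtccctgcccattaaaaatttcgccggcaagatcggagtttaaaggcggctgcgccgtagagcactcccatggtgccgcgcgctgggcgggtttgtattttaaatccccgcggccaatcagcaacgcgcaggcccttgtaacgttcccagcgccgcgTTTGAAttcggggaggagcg
Top2a: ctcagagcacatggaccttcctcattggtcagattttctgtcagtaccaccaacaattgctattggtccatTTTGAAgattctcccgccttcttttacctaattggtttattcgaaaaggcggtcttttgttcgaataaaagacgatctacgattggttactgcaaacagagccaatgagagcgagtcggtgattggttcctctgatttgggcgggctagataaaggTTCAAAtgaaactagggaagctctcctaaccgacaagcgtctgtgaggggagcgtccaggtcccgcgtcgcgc
Mki67: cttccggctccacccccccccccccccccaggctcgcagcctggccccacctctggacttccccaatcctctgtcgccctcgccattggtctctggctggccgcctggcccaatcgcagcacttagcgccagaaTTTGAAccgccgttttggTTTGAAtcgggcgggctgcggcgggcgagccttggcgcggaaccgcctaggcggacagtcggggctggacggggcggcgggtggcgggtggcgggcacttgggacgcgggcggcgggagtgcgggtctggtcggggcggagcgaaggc
Of *Mcm3* (chr1:20820263-20820562, minus strand) and *Mcm6* (chr1:128359656-128359955, minus strand), capitals mark E2F words on either strand.
Mcm3: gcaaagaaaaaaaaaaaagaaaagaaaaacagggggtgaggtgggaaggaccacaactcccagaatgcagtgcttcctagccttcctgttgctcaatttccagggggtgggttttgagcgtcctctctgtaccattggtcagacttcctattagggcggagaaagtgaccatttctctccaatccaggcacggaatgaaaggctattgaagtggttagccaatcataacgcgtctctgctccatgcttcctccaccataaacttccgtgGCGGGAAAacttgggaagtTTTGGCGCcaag
Mcm6: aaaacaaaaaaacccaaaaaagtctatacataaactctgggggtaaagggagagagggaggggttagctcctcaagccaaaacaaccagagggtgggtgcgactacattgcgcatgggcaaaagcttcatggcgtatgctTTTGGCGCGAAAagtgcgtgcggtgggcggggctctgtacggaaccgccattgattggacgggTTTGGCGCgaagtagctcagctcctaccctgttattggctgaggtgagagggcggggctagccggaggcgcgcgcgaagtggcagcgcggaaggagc

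**Figure D3:**
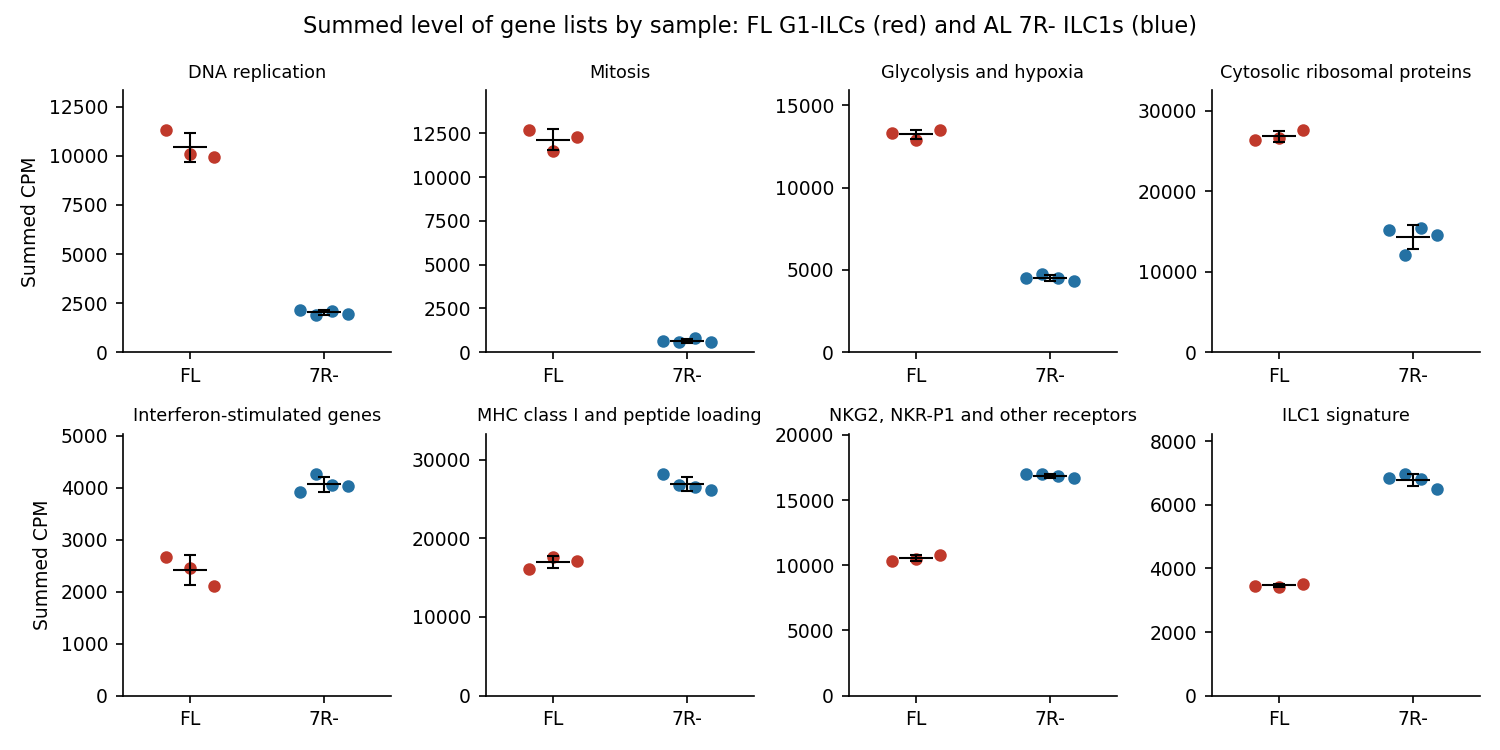
Summed CPM of 8 gene lists in each of the 3 FL G1-ILC samples (red, left) and the 4 AL 7R- ILC1 samples (blue, right), with black bars for the mean and SD. Sums of mitosis genes were 11480 to 12670 CPM in FL G1-ILCs and 560 to 834 CPM in AL 7R- ILC1s, and sums of interferon-stimulated genes were 2108 to 2672 CPM in FL G1-ILCs and 3919 to 4263 CPM in AL 7R- ILC1s.

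The regulators that lead into division moved in both directions. Of the G1/S regulators and inhibitors, 17 of 27 tested members were higher and 7 lower. The cyclin E2 gene *Ccne2* had 90.3, 86.6 and 72.2 CPM in FL G1-ILCs, against 4.78, 8.06, 6.13 and 9.06 CPM in AL 7R- ILC1s, and the kinase gene *Cdk6* rose by 2.60 (standard error 0.16, adjusted p = 5.76e-12). The D-type cyclin genes *Ccnd2* and *Ccnd3* were slightly lower instead, at -0.57 and -0.39. Of the inhibitors, *Cdkn1a*, which encodes p21, was higher, with 31.3, 30.03 and 25.99 CPM in FL G1-ILCs, against 1.33, 1.25, 1.38 and 0.799 CPM in AL 7R- ILC1s, and *Cdkn2c*, which encodes p18, rose by 1.46. *Btg1*, an antiproliferative gene of resting lymphocytes, was lower, with 156, 189.8 and 188 CPM in FL G1-ILCs, against 618, 614, 555 and 684 CPM in AL 7R- ILC1s, and its relative *Btg2* fell by 1.28 on the log2 scale. *Mxd4*, which encodes an antagonist of MYC, fell by 1.91 on the log2 scale (adjusted p = 8.64e-14). *Myc* itself had 265, 274 and 301 CPM in FL G1-ILCs, against 115, 86.9, 95.1 and 105 CPM in AL 7R- ILC1s, and *Mycn* (ENSMUSG00000037169, chromosome 12 from 12936093 to 12941914, minus strand), a paralog active in progenitors, had 9.56, 12.3 and 8.74 CPM in FL G1-ILCs, against 0, 0, 0.153 and 0 CPM in AL 7R- ILC1s. The adult level of *Mycn* rested on 1 count against 166 in the fetal samples, a ratio of 205 (95% exact interval 36.3 to 8150), or at least 44.5-fold without adult sample 3. No fetal and adult sample overlapped for either gene. Without adult sample 3, which held that count, the fitted log2 fold change of *Mycn* was 8.68 in place of 7.10.

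Several genes of the fetal program were higher in FL G1-ILCs. LIN28B is an RNA-binding protein of fetal blood formation that blocks the let-7 microRNAs, and *Igf2bp3*, *Hmga2* and *Arid3a* belong to the same program in the mouse (*Hmga2* was below the filter here). Of 22 listed genes, 9 passed the filter on low counts. Some, such as *Lin28b*, passed it only through the fetal samples, and the 6 higher and 1 lower among them are a description of the list. Without a filter 7 were higher and 2 lower, with a median log2 fold change of -0.14, against 1.58 with it. *Igf2bp3* (ENSMUSG00000029814, chromosome 6 from 49085223 to 49214957, minus strand), which encodes an mRNA-binding protein, had 112, 87.2 and 89.2 CPM in FL G1-ILCs, against 0.53, 1.07, 0.767 and 1.07 CPM in AL 7R- ILC1s, a change of 6.76 (standard error 0.45, adjusted p = 1.86e-11). *Lin28b* (ENSMUSG00000063804, chromosome 10 from 45376620 to 45486395, minus strand) had 10.8, 11.8 and 8.51 CPM in FL G1-ILCs, against 0.265, 0.358, 0 and 0 CPM in AL 7R- ILC1s, with 168 counts in the fetal and 3 in the adult samples and a ratio of 69.2 (95% exact interval 23.3 to 339). Without adult sample 2 that ratio was 148 (26.3 to 5900), and its fitted log2 fold change was 6.66 in place of 5.86. Each fetal sample was above each of the 15 adult samples of the fit for both genes. Of 13424 genes tested, 2093 were called higher and lay above all 15 in the same way. For *Lin28b*, which passed the filter only through the fetal samples, this only describes the gene. *Arid3a*, of the same program, was higher by 1.17 (standard error 0.17, adjusted p = 4.02e-06) over an adult level that was itself well above 0. It had 117, 130.2 and 140.3 CPM in FL G1-ILCs, against 72.95, 63.95, 42.9 and 50.9 CPM in AL 7R- ILC1s. *Hmga1*, a chromatin protein gene, rose by 1.58 (standard error 0.15, adjusted p = 8.19e-09). The growth factor gene *Hbegf* was the lower one (-2.44, adjusted p = 0.00354), at -3.30 without FL sample 1. The adult groups other than AL 7R- ILC1s had mean *Igf2bp3* levels of 1.08 CPM in AL 7R+ ILC1s, 0.98 CPM in BM iILC1s, 1.46 CPM in BM NK cells and 1.33 CPM in AL NK cells.

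Genes of biosynthesis were higher alongside. Of the nucleotide and one-carbon synthesis genes, 24 of 25 tested members were higher and 0 lower (median 1.57), of the glycolysis and hypoxia genes 27 of 31 were higher and 1 lower (median 1.10), and of the sterol and fatty acid synthesis genes 18 of 27 were higher and 0 lower (median 0.66). The lactate dehydrogenase gene *Ldha* had 2833, 2689 and 2806 CPM in FL G1-ILCs, against 524, 566, 542 and 551 CPM in AL 7R- ILC1s. *Tpi1* and *Eno1*, glycolytic enzyme genes, rose by 2.61 (standard error 0.09, adjusted p = 1e-15) and 1.95 (standard error 0.06, adjusted p = 1.31e-16). *Hk2*, which encodes a hexokinase, was higher by 4.52, and by 5.22 without adult sample 1. The lactate carrier gene *Slc16a1* had 77.9, 73.7 and 63.2 CPM in FL G1-ILCs, against 0.53, 0.179, 4.75 and 3.46 CPM in AL 7R- ILC1s, a log2 fold change of 4.93 that was 5.80 without adult sample 3. *Shmt1* and *Mthfd2*, genes of folate metabolism in cytosol and mitochondria, rose by 5.32 and 3.04, and *Phgdh*, which opens serine synthesis, by 2.13. Of the lipid genes, *Scd2*, a fatty acid desaturase gene, had 375, 342 and 380.2 CPM in FL G1-ILCs, against 39.3, 52.7, 54.6 and 40.8 CPM in AL 7R- ILC1s. Genes of mTOR signalling and of amino acid and iron uptake were called in both directions. Of 33 tested, 9 were higher and 12 lower (median -0.08), or 63.6% called against 47.7% of all genes tested (24.8% higher and 22.9% lower). With upper-quartile scaling 8 were higher and 16 lower. *Slc7a5*, which encodes the light chain of an amino acid carrier, and *Tfrc*, the transferrin receptor gene, rose by 3.96 (standard error 0.41, adjusted p = 2.79e-08) and 2.53 (standard error 0.35, adjusted p = 2.35e-06). *Slc3a2*, which encodes the heavy chain of that carrier, had -0.26 (adjusted p = 0.0482), a call lost without FL sample 1 or 4 or adult sample 1 or 4 (adjusted p = 0.0504 to 0.221). Among genes that restrain growth signals, *Sesn1* and *Pik3ip1* were lower (-1.88 and -1.90).

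Lists of genes of protein and energy production, written after the values were seen, were also mostly higher. Of 76 cytosolic ribosomal protein genes, 73 were higher and 0 lower (median 0.94), and of 32 ribosome biogenesis genes, 30 were higher and 0 lower (median 1.40). The nucleolar gene *Npm1* had 812, 792 and 779.6 CPM in FL G1-ILCs, against 225, 203, 208 and 221 CPM in AL 7R- ILC1s, and *Ncl*, which encodes nucleolin, rose by 1.46. All 31 proteasome genes, all 16 chaperonin and folding genes and 40 of 45 oxidative phosphorylation genes were higher, with medians of 0.87, 1.05 and 0.69. TMM scaling without the cell cycle and ribosomal protein genes moved the median of all genes by 0.02 and left 73 ribosomal protein genes higher.

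Of 26 tested chromatin genes, 16 were higher and 5 lower. *Uhrf1* and *Dnmt1*, which maintain DNA methylation after replication, rose by 5.05 (standard error 0.47, adjusted p = 9.47e-07) and 1.59 (standard error 0.10, adjusted p = 6.13e-12). The polycomb methyltransferase gene *Ezh2* had 142, 137 and 127 CPM in FL G1-ILCs, against 25.5, 15.9, 22.7 and 17.9 CPM in AL 7R- ILC1s, whereas its paralog *Ezh1* fell by 1.03 on the log2 scale (adjusted p = 2.62e-06) and the polycomb reader gene *Cbx7* had -1.83 (adjusted p = 9.87e-11). *Hmgb2*, a chromatin protein gene of dividing cells, had 2542, 2588 and 2543 CPM in FL G1-ILCs, against 311, 303, 254 and 274 CPM in AL 7R- ILC1s. *Lmna*, which encodes the A-type lamins, stood at 36.5, 37.7 and 32.2 CPM in FL G1-ILCs, against 0.796, 0.358, 0.46 and 2.67 CPM in AL 7R- ILC1s (log2 fold change 5.20, and 6.06 without adult sample 4).

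**Figure D4:**
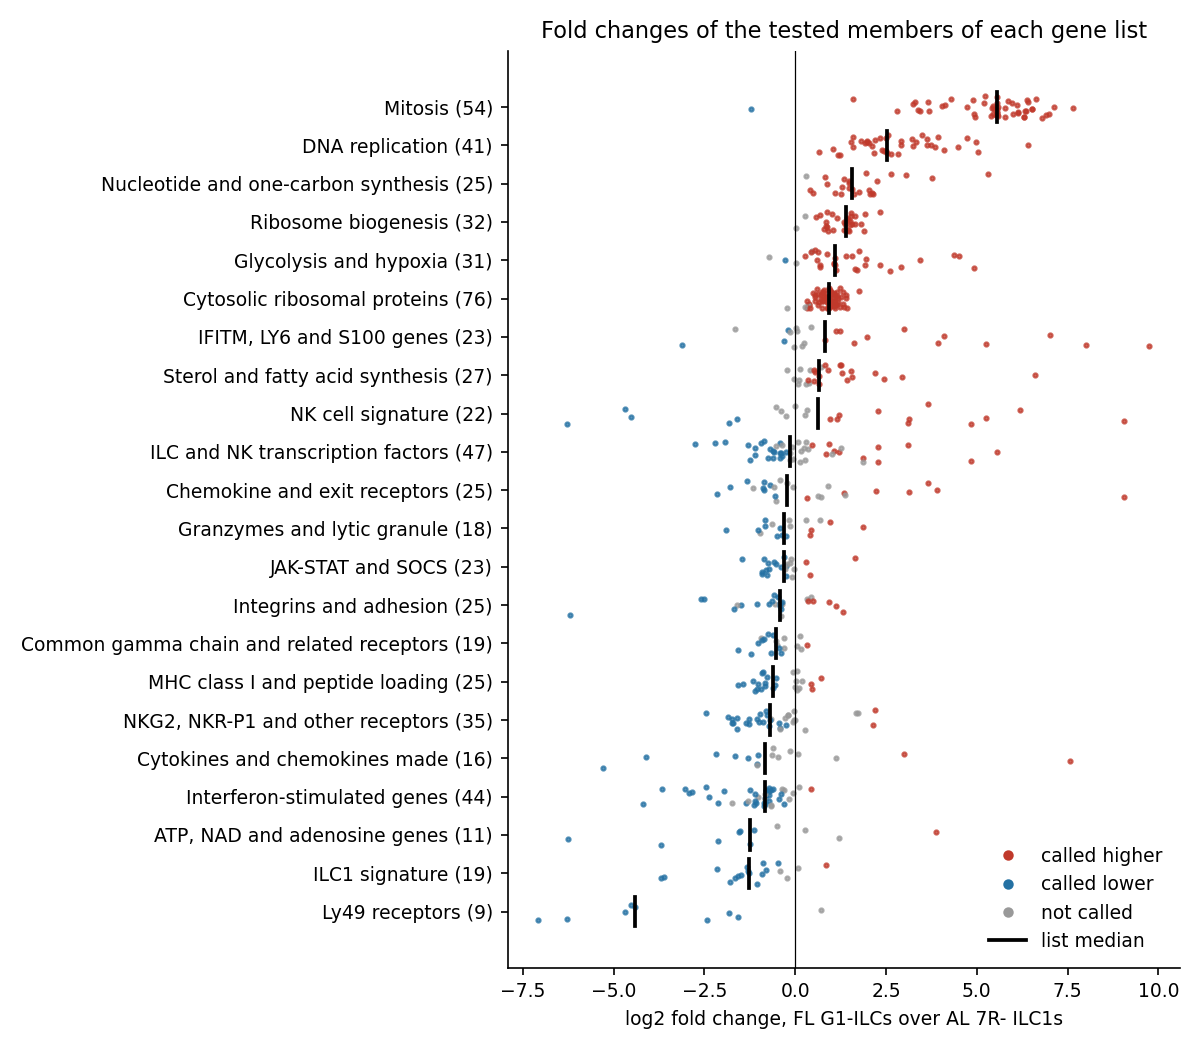
Each dot is the log2 fold change of FL G1-ILCs over AL 7R- ILC1s of 1 tested gene of a list (number of genes in brackets), red where called higher, blue where called lower and grey where not called, and black bars mark list medians. Medians ran from -4.41 for Ly49 receptors to 5.55 for mitosis genes.

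Transcription factors of ILCs and NK cells differed in a mixed way, with 11 of 47 tested higher and 20 lower. That is 66% called, against 47.7% of all genes tested (24.8% higher and 22.9% lower), so the share of higher genes was near that of all genes. *Eomes* (ENSMUSG00000032446, chromosome 9 from 118478212 to 118486132, plus strand), the factor of NK cells, had 26.1, 32.9 and 36.6 CPM in FL G1-ILCs, against 4.78, 1.79, 4.60 and 3.73 CPM in AL 7R- ILC1s. The fetal samples were all above the adult ones (log2 fold change 3.11, standard error 0.43, adjusted p = 3.04e-05) and far below AL NK cells, which averaged 499 CPM. *Klf2*, which controls exit from tissue through S1P receptors, had 97.8, 118 and 71.98 CPM in FL G1-ILCs, against 2.92, 2.15, 5.06 and 2.67 CPM in AL 7R- ILC1s (log2 fold change 4.84, standard error 0.21, adjusted p = 4.01e-14). *Zeb2*, a factor of late NK cell maturation, and *Irf8*, a factor of NK cell responses, rose by 2.28 (standard error 0.42, adjusted p = 0.00014) and 1.21 (standard error 0.11, adjusted p = 4.03e-09). *Zbtb16*, which encodes PLZF of ILC precursors, had 34.1, 16.9 and 18.2 CPM in FL G1-ILCs, against 8.22, 3.94, 7.51 and 5.33 CPM in AL 7R- ILC1s, a rise of 1.88 (standard error 0.39, adjusted p = 0.000359). *Tox2*, a factor of NK cell development, had 7.37, 5.51 and 5.06 CPM in FL G1-ILCs, against 0, 0, 0.153 and 0.267 CPM in AL 7R- ILC1s, with 2 counts in the adult samples and a ratio of 58.7 (95% exact interval 15.8 to 491), and 94.9 without adult sample 4 (16.6 to 3790). On the lower side, *Zfp683* (ENSMUSG00000049410, chromosome 4 from 134053838 to 134058996, plus strand), which encodes Hobit of resident lymphocytes, had 70.3, 89.6 and 83.5 CPM in FL G1-ILCs, against 220.4, 195, 189.8 and 192 CPM in AL 7R- ILC1s (log2 fold change -1.29, standard error 0.13, adjusted p = 9.92e-09). *Zbtb20*, which encodes a zinc finger repressor, had 28.5, 39.99 and 28.5 CPM in FL G1-ILCs, against 184, 233, 218 and 246 CPM in AL 7R- ILC1s, the largest fall of the list at -2.75 (standard error 0.13, adjusted p = 9.6e-14). *Bcl11b*, a factor of T cells and ILC2s, fell by 1.92 on the log2 scale and *Ets1* by 1.12 (adjusted p = 1.16e-07 and 6.43e-08). *Prdm1*, which encodes BLIMP-1, *Gata3* and *Tox* were also lower, at -0.94, -0.59 and -0.75. *Id2* was lower by less (-0.43, adjusted p = 2.37e-06), and *Nfil3* and *Runx3* were not called (0.14 and -0.16), though *Runx3* was without FL sample 2 with 3 (-0.30, adjusted p = 0.0303). *Tcf7*, the gene of TCF-1, was low in both groups, at 12.5 ± 2.84 CPM in FL G1-ILCs and 9.52 ± 2.08 CPM in AL 7R- ILC1s (SD, n = 3 and 4), and was not called, while its relative *Lef1* rose by 1.06.

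**Figure D5:**
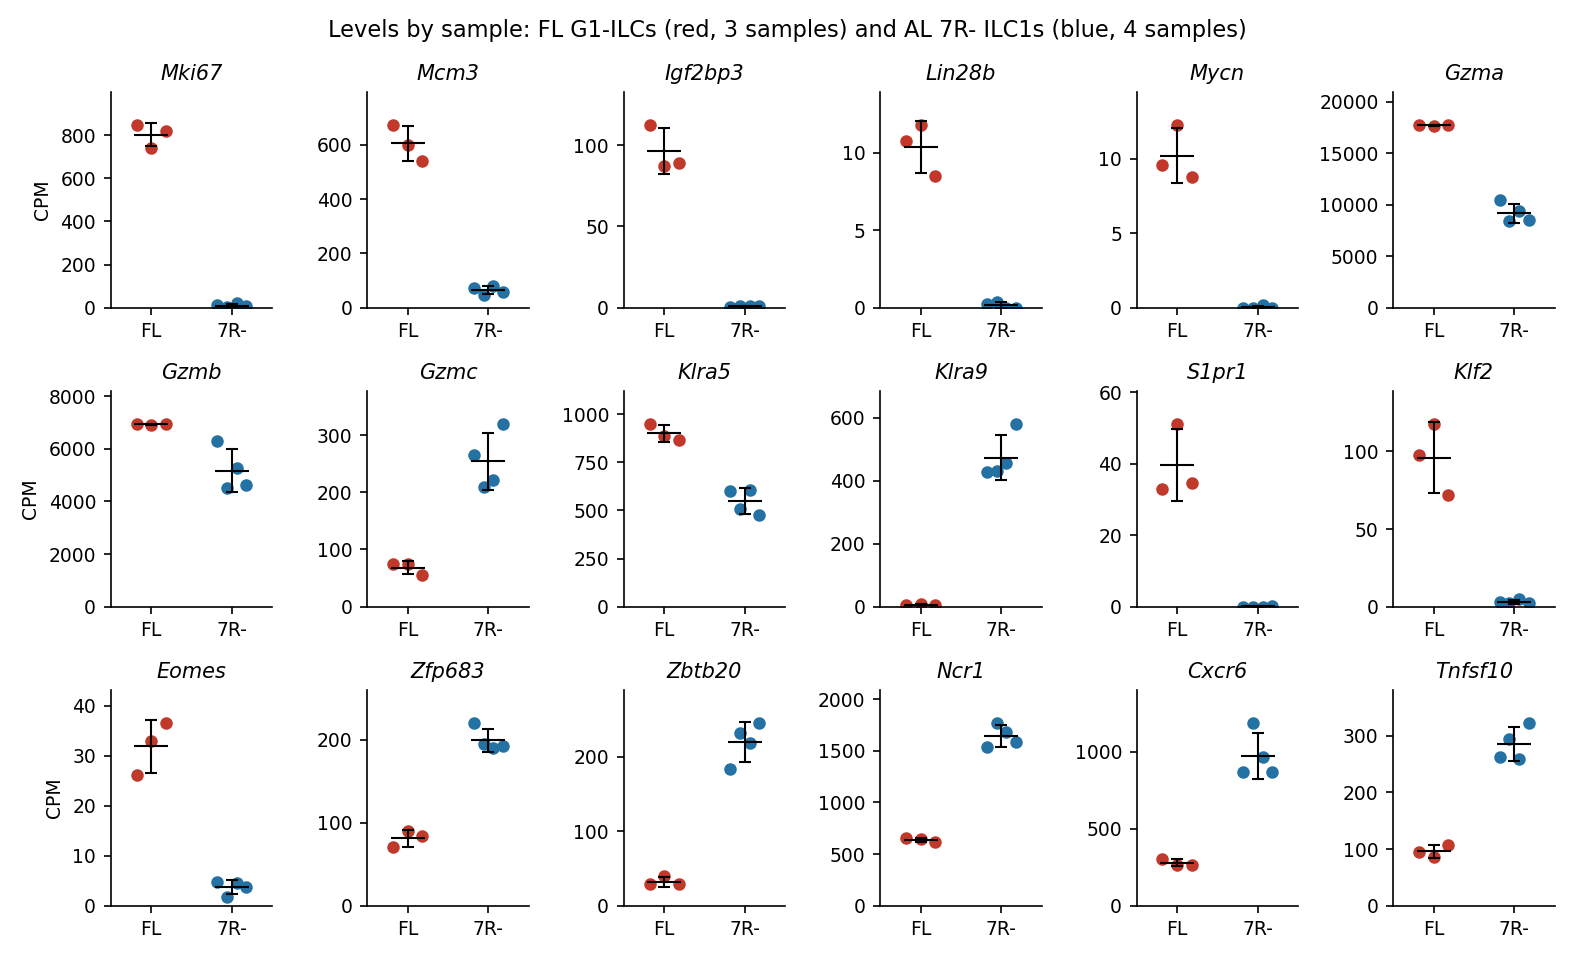
CPM of 18 genes in each of the 3 FL G1-ILC samples (red, left) and the 4 AL 7R- ILC1 samples (blue, right), with black bars for the mean and SD and each axis starting at 0. The groups do not overlap for any of the 18 genes, which were chosen with their values known, and *Gzmb* and *Klra5* have the smallest fold changes. Of 13424 genes tested, 3486 higher and 3133 lower ones did not overlap either.

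Genes of killing were expressed in both groups and did not move as one. Of 18 tested granzyme and granule genes, 4 were higher and 8 lower, or 66.7% called against 47.7% of all genes tested (24.8% higher and 22.9% lower). *Gzma* (ENSMUSG00000023132, chromosome 13 from 113093825 to 113100981, minus strand), which encodes granzyme A, had 17750, 17660 and 17750 CPM in FL G1-ILCs, against 10410, 8407, 9362 and 8507 CPM in AL 7R- ILC1s, a rise of 0.95 (standard error 0.17, adjusted p = 0.000538). *Gzmb* (ENSMUSG00000015437, chromosome 14 from 56258838 to 56262260, minus strand), which encodes granzyme B, had 6949, 6894 and 6946 CPM in FL G1-ILCs, against 6306, 4508, 5271 and 4611 CPM in AL 7R- ILC1s. Its difference was small (log2 fold change 0.42, standard error 0.15, adjusted p = 0.0357) and lost its call in 10 of 20 other fits, among them those without any 1 FL sample or without adult sample 2, 3 or 4 (adjusted p = 0.0558 to 0.167). *Gzmc* went the other way, with 75.1, 74 and 54.96 CPM in FL G1-ILCs, against 266, 209.9, 221 and 319.7 CPM in AL 7R- ILC1s (log2 fold change -1.90, standard error 0.30, adjusted p = 7.78e-05), and the low *Gzmk* rose by 1.85 (standard error 0.47, adjusted p = 0.00205). *Prf1*, which encodes perforin, had 362, 407 and 482 CPM in FL G1-ILCs, against 499, 477, 456 and 437 CPM in AL 7R- ILC1s and was not called (-0.16, adjusted p = 0.202), though it was without FL sample 4 (-0.28, adjusted p = 0.0463). The granule genes *Nkg7* and *Ctsw* were lower, at -0.36 and -0.82, and *Lyst*, of granule formation, fell by 1.02 on the log2 scale. In the remaining adult groups *Gzma* averaged 1328 CPM in AL 7R+ ILC1s, 207 CPM in BM iILC1s, 3738 CPM in BM NK cells and 7430 CPM in AL NK cells. *Gzmb* averaged 1071 CPM in AL 7R+ ILC1s, 73.5 CPM in BM iILC1s, 350 CPM in BM NK cells and 1282 CPM in AL NK cells.

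Of 8 tested intracellular serpin genes, which encode inhibitors of proteases, 4 were higher and 2 lower. *Serpinb9*, which blocks granzyme B in the cell that makes it, had 666, 686 and 648 CPM in FL G1-ILCs, against 292, 230.4, 245 and 237 CPM in AL 7R- ILC1s (log2 fold change 1.41, standard error 0.08, adjusted p = 2.71e-12). Its relative *Serpinb9b* (ENSMUSG00000021403, chromosome 13 from 33027416 to 33041884, plus strand) had 37.7, 30.2 and 28.3 CPM in FL G1-ILCs, against 1.59, 0, 0.153 and 0.267 CPM in AL 7R- ILC1s, and *Serpinb1a* had 38.1, 48.4 and 50.4 CPM in FL G1-ILCs, against 1.33, 0, 0 and 0.267 CPM in AL 7R- ILC1s. Adult sample 1 was the highest for both, and without it the fitted log2 fold changes were 7.74 in place of 6.20 for *Serpinb9b* and 9.02 in place of 7.09 for *Serpinb1a*. *Serpinb6b* rose by 0.96, while *Serpina3g*, which inhibits cathepsins, fell to 388, 364 and 345 CPM in FL G1-ILCs, against 1228, 1274, 1140 and 1319 CPM in AL 7R- ILC1s.

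Ly49 receptors, which read MHC class I on other cells, were mostly lower in FL G1-ILCs, with 8 of 9 tested members lower and 0 higher. *Klra9* (ENSMUSG00000033024, chromosome 6 from 130178675 to 130193112, minus strand), which encodes Ly49I, had 6.38, 7.05 and 4.37 CPM in FL G1-ILCs, against 427, 431, 457 and 581 CPM in AL 7R- ILC1s (log2 fold change -6.28, standard error 0.23, adjusted p = 4.29e-14). *Klra8*, which encodes Ly49H, had 0, 1.69 and 0.23 CPM in FL G1-ILCs, against 23.6, 13.1, 30.5 and 10.7 CPM in AL 7R- ILC1s. *Klra1* had no count in FL G1-ILCs, against 1.06, 2.87, 0.767 and 9.86 CPM in AL 7R- ILC1s. A limit of 3 counts over the group puts it at least 19.3-fold lower, or at least 8.29-fold without adult sample 4 and 11.4-fold without FL sample 2 with 3. *Klra4* had 2 counts, which makes it lower by a factor of 27.1 (95% exact interval 7.22 to 229), or at least 11.1-fold without FL sample 2 with 3, which held both. The fitted log2 fold changes moved without FL sample 2 with 3, to -7.30 for *Klra8* (-4.69 with it) and to -7.12 for *Klra4* (-4.52 with it). *Klra8*, *Klra4* and *Klra1* were themselves low in AL 7R- ILC1s, with means of 19.5, 3.55 and 3.64 CPM, against 1321, 901 and 85.3 CPM in AL NK cells. *Klra9* was not, with means of 474 CPM in AL 7R- ILC1s and 642 CPM in AL NK cells. *Klra5* (ENSMUSG00000030173, chromosome 6 from 129898996 to 129917650, minus strand), which encodes Ly49E of fetal NK cells, was the exception, with 949.7, 886 and 866 CPM in FL G1-ILCs, against 602, 509, 606 and 477 CPM in AL 7R- ILC1s. The groups did not overlap, and the difference was not called in the fit of 6 groups (log2 fold change 0.71, standard error 0.36, adjusted p = 0.128) but was when only the 2 groups were fitted (adjusted p = 3.61e-06). The remaining adult groups had mean *Klra5* levels of 19.2 CPM in AL 7R+ ILC1s, 35.2 CPM in BM iILC1s, 12.1 CPM in BM NK cells and 15.8 CPM in AL NK cells.

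Other activating and inhibitory receptors were also lower as a group, with 21 of 35 tested lower and 2 higher and summed levels of 10340 to 10810 CPM in FL G1-ILCs and 16660 to 17010 CPM in AL 7R- ILC1s. *Klrk1*, which encodes NKG2D, had 983, 977 and 975 CPM in FL G1-ILCs, against 1751, 1837, 1777 and 1894 CPM in AL 7R- ILC1s. *Tigit*, an inhibitory receptor gene, had 42.05, 42.1 and 49.2 CPM in FL G1-ILCs, against 128, 142, 129 and 143 CPM in AL 7R- ILC1s, and *Lag3* and *Cd200r1*, of the same kind, fell, at -1.74 and -1.28. *Klrc1*, which encodes NKG2A, and *Cd160* had log2 fold changes of -0.04 and -0.03 and were not called. The 2 higher genes were *Pdcd1*, which encodes PD-1, and *Cd28*. *Pdcd1* had 116, 86.4 and 98.2 CPM in FL G1-ILCs, against 17.5, 35.5, 18.7 and 15.2 CPM in AL 7R- ILC1s (log2 fold change 2.19, standard error 0.29, adjusted p = 1.03e-06). The remaining adult groups had mean *Pdcd1* levels of 4.77 CPM in AL 7R+ ILC1s, 1.12 CPM in BM iILC1s, 0.059 CPM in BM NK cells and 0.127 CPM in AL NK cells. *Cd28* was low and uneven, with 9.56, 10.6 and 20.2 CPM in FL G1-ILCs, against 0.265, 4.84, 0.307 and 7.19 CPM in AL 7R- ILC1s, a log2 fold change of 2.15 that was 2.79 without adult sample 4.

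Genes of CD3 chains, T cell receptor loci and adaptors were 14 lower and 1 higher (2 without adult sample 1) of 23 tested, in cells sorted as CD3-negative. *Cd3g* was abundant in both, with 1342, 1440 and 1531 CPM in FL G1-ILCs, against 2288, 1919, 2017 and 1772 CPM in AL 7R- ILC1s (log2 fold change -0.47, standard error 0.12, adjusted p = 0.00268), whereas *Cd3e* was at 0.399, 1.38 and 3.45 CPM in FL G1-ILCs, against 20.2, 6.63, 10.4 and 36.5 CPM in AL 7R- ILC1s (log2 fold change -3.41, standard error 0.63, adjusted p = 0.000375). *Tcrg-C4*, a constant gene of the γ locus, had 12.6, 11.3 and 6.67 CPM in FL G1-ILCs, against 133, 179, 137 and 135 CPM in AL 7R- ILC1s (log2 fold change -3.82, standard error 0.18, adjusted p = 1.13e-13), and *Trdc*, of the δ locus, had 9.17, 16.7 and 11.96 CPM in FL G1-ILCs, against 58.9, 46.04, 42.9 and 47.2 CPM in AL 7R- ILC1s. The adaptor gene *Fcer1g* fell by 0.52 on the log2 scale, and *Cd247*, which encodes CD3ζ, rose by 0.38 (standard error 0.12, adjusted p = 0.0101), a call lost without FL sample 1 (adjusted p = 0.0589) or FL sample 2 with 3 (adjusted p = 0.0888). *Cd3e* was at -4.21 without FL sample 4.

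Cytokine genes were lower in FL G1-ILCs more often than higher, with 7 of 16 tested lower and 2 higher. That is 56.2% called, against 47.7% of all genes tested (24.8% higher and 22.9% lower). *Il2* had 0.797, 1.07 and 0.46 CPM in FL G1-ILCs, against 27.3, 35.3, 33.9 and 33.04 CPM in AL 7R- ILC1s (log2 fold change -5.28, standard error 0.37, adjusted p = 5.65e-11). *Csf1*, which encodes the macrophage growth factor M-CSF, had 2.59, 1.69 and 2.30 CPM in FL G1-ILCs, against 38.99, 34.9, 43.9 and 33.8 CPM in AL 7R- ILC1s (log2 fold change -4.11, standard error 0.48, adjusted p = 1.49e-07), and *Csf2*, which encodes GM-CSF, fell by 2.17 on the log2 scale (adjusted p = 0.000105). The chemokine gene *Ccl5* had 1531, 1813 and 1485 CPM in FL G1-ILCs, against 4444, 3463, 4211 and 3657 CPM in AL 7R- ILC1s, and *Xcl1* fell by 1.65 on the log2 scale. *Ltb*, which encodes lymphotoxin β, fell by 1.06 on the log2 scale (adjusted p = 1.85e-10) and *Lta*, its partner, rose by 3.00 (standard error 0.49, adjusted p = 2.01e-05). *Tgfb3* had 17.3, 27.1 and 26.9 CPM in FL G1-ILCs, against 0.265, 0, 0.153 and 0 CPM in AL 7R- ILC1s, with 2 counts in the adult samples and a ratio of 235 (95% exact interval 64.7 to 1950), and 380 without adult sample 1 (67.8 to 15100). *Ifng* stood at 71.3 ± 10.9 CPM in FL G1-ILCs and 78.4 ± 6.12 CPM in AL 7R- ILC1s (SD, n = 3 and 4) and was not called (log2 fold change -0.14, standard error 0.18, adjusted p = 0.551).

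Death ligands and other TNF family genes were 7 lower and 2 higher of 13 tested, with 1 higher without FL sample 1, FL sample 2 with 3 or adult sample 2. *Tnfsf10* (ENSMUSG00000039304, chromosome 3 from 27317028 to 27342427, plus strand), which encodes TRAIL, had 94.8, 85.5 and 107 CPM in FL G1-ILCs, against 263, 295, 259.6 and 323 CPM in AL 7R- ILC1s (log2 fold change -1.57, standard error 0.13, adjusted p = 1.03e-09). *Fasl* was lower by a small amount (log2 fold change -0.22, standard error 0.08, adjusted p = 0.0262), a call lost without FL sample 4 (-0.17, adjusted p = 0.142). *Tnfsf8* and *Tnfsf14*, which encode CD30L and LIGHT, fell, at -3.39 and -1.83. *Tnfrsf25*, which encodes DR3, was higher, with 18.3, 27.9 and 13.3 CPM in FL G1-ILCs, against 2.12, 5.91, 6.44 and 5.86 CPM in AL 7R- ILC1s.

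Of the common γ chain and related receptors, 10 of 19 tested were lower and 1 higher (0 without FL sample 2 with 3). Of the IL-12, IL-18 and IL-1 family receptors, 3 of 9 were higher and 2 lower (1 without FL sample 4), where 24.8% and 22.9% of all genes tested were so called. *Il15ra* had 11.4, 17.8 and 10.1 CPM in FL G1-ILCs, against 28.4, 43.7, 40.6 and 43.96 CPM in AL 7R- ILC1s (log2 fold change -1.57, standard error 0.24, adjusted p = 8.56e-06), and *Il21r* and *Il10ra* fell, at -1.02 and -1.23. *Il18r1* had 67.3, 79.8 and 89 CPM in FL G1-ILCs, against 9.02, 9.14, 4.29 and 10.4 CPM in AL 7R- ILC1s (log2 fold change 3.31, standard error 0.24, adjusted p = 1.03e-09) and its partner *Il18rap* had 302, 320.4 and 276 CPM in FL G1-ILCs, against 117, 97.6, 104 and 97.5 CPM in AL 7R- ILC1s (log2 fold change 1.53, standard error 0.09, adjusted p = 1e-12). *Il12rb2* rose slightly (0.36, adjusted p = 0.0108), a call lost without FL sample 1 (adjusted p = 0.101) or FL sample 2 with 3 (adjusted p = 0.0687), and *Il27ra* was lower (-1.47, adjusted p = 6.83e-11). Of 23 JAK-STAT and SOCS genes, 14 were lower and 3 higher (1 without FL sample 2 with 3). The STAT5 target *Cish* had 98.2, 100.4 and 107 CPM in FL G1-ILCs, against 184, 205, 210.2 and 164 CPM in AL 7R- ILC1s, and *Socs2* fell by 0.78 on the log2 scale.

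Genes of trafficking included the largest rise of those named by the rule on fold change. *S1pr1* (ENSMUSG00000045092, chromosome 3 from 115710433 to 115715072, minus strand), the receptor for exit from tissue into blood and lymph, had 33.1, 51.2 and 34.5 CPM in FL G1-ILCs, against 0, 0, 0 and 0.267 CPM in AL 7R- ILC1s. That is 650 counts against 1, a ratio of 803 (95% exact interval 144 to 31800), or at least 210-fold without adult sample 4. Without adult sample 4, which held that count, the fitted log2 fold change was 10.69 in place of 9.04. The mean level of *S1pr1* was 39.6 CPM in FL G1-ILCs and 2.31 CPM in AL 7R+ ILC1s. It was higher in BM iILC1s (159.5 CPM), BM NK cells (176.7 CPM) and AL NK cells (140.1 CPM). Over the mean of the other adult groups in the same fit, *S1pr1* was thus slightly lower in FL G1-ILCs (-0.49, adjusted p = 0.0494). *Ccr9*, a gut homing receptor gene, was at 9.56, 3.68 and 8.97 CPM in FL G1-ILCs, against 0.265, 1.07, 0 and 0.533 CPM in AL 7R- ILC1s (log2 fold change 3.92, and 4.82 without adult sample 2). *S1pr5*, the S1P receptor of NK cells, was not called (-0.54, adjusted p = 0.171), though it was without FL sample 2 with 3 (-0.98, adjusted p = 0.0354). *Cxcr6*, which holds ILC1s in liver sinusoids, had 305, 264 and 265 CPM in FL G1-ILCs, against 869, 1186, 966 and 866 CPM in AL 7R- ILC1s (log2 fold change -1.81, standard error 0.13, adjusted p = 3.17e-10), and *Cxcr3* fell by 0.69 on the log2 scale. *Ccr2* had 309.5, 221 and 278 CPM in FL G1-ILCs, against 55.2, 109, 101 and 159 CPM in AL 7R- ILC1s (log2 fold change 1.34, standard error 0.23, adjusted p = 0.000263). Of 25 chemokine and exit receptor genes, 7 were higher and 8 lower, or 60% called against 47.7% of all genes tested.

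Of 25 integrin and adhesion genes, 14 were lower and 5 higher. *Itgax*, which encodes CD11c, had 73.7, 99.6 and 137 CPM in FL G1-ILCs, against 608, 519, 632 and 581 CPM in AL 7R- ILC1s (log2 fold change -2.50, standard error 0.16, adjusted p = 8.6e-11). *Jaml*, an adhesion receptor gene, had 2 counts in FL G1-ILCs, against 213 in AL 7R- ILC1s, a factor of 86.2 (95% exact interval 23.6 to 717) lower. *Epcam* fell to 7.37, 10.7 and 10.3 CPM in FL G1-ILCs, against 83.3, 56.97, 45.9 and 42.9 CPM in AL 7R- ILC1s, and *Cd44* by 1.06 on the log2 scale. *Itga4*, the α4 chain that binds VCAM-1, was higher, with 274, 263 and 264 CPM in FL G1-ILCs, against 95.2, 111, 118 and 103 CPM in AL 7R- ILC1s (log2 fold change 1.32, standard error 0.10, adjusted p = 1.73e-10). *Itga2*, which encodes CD49b, was not called (0.32, adjusted p = 0.155). *Emb* (ENSMUSG00000021728, chromosome 13 from 117208536 to 117274415, plus strand), which encodes embigin, rose by 6.21 (standard error 0.33, adjusted p = 1.21e-12) over adult levels of 0, 0.358, 0.153 and 1.86 CPM, and by 7.54 without adult sample 4. In the remaining adult groups *Emb* averaged 82.2 CPM in AL 7R+ ILC1s, 397 CPM in BM iILC1s, 319 CPM in BM NK cells and 128 CPM in AL NK cells.

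Genes that handle extracellular ATP and NAD were mostly lower, with 7 of 11 tested lower and 1 higher. *P2rx7*, the ATP-gated channel through which NAD can kill ILC1s, had 5.18, 3.68 and 3.22 CPM in FL G1-ILCs, against 54.1, 72.2, 33.6 and 49.3 CPM in AL 7R- ILC1s (log2 fold change -3.69, standard error 0.32, adjusted p = 1.2e-09). *Art2b*, which encodes the ecto-ADP-ribosyltransferase that modifies it, had 0.399, 2.15 and 0 CPM in FL G1-ILCs, against 81.7, 90.8, 65.02 and 69.8 CPM in AL 7R- ILC1s (log2 fold change -6.27, standard error 0.55, adjusted p = 5.57e-09). Without FL sample 2 with 3 the fitted change of *Art2b* was -8.40. *Cd38* and *Nt5e*, which encode enzymes that consume NAD and make adenosine, fell, at -1.54 and -2.12. The UDP-sugar receptor gene *P2ry14* was the higher one, with 33.9, 29.6 and 35.2 CPM in FL G1-ILCs, against 1.86, 2.51, 1.84 and 2.67 CPM in AL 7R- ILC1s.

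Interferon-stimulated genes, which cells switch on in response to interferons, were mostly lower in FL G1-ILCs. Of 44 tested, 31 were lower and 1 higher (0 without any 1 sample other than adult sample 2), with a median of -0.84 and summed levels of 2108 to 2672 CPM in FL G1-ILCs and 3919 to 4263 CPM in AL 7R- ILC1s. *Ifit1* had 10.96, 18.1 and 5.75 CPM in FL G1-ILCs, against 64.5, 73.1, 37.1 and 35.2 CPM in AL 7R- ILC1s, and *Ifit3* had 1.99, 2.76 and 1.38 CPM in FL G1-ILCs, against 20.96, 20.2, 13.9 and 9.06 CPM in AL 7R- ILC1s. Fetal sample 4 was the lowest for *Ifit1*, and its call was lost without that sample (-1.84, adjusted p = 0.0661), while *Ifit3* kept its call in every other fit. *Slfn8* had 45.8, 26.8 and 30.4 CPM in FL G1-ILCs, against 171, 174, 196 and 172 CPM in AL 7R- ILC1s. *Oas1a*, an RNA sensor gene, and *Gbp5*, which encodes a GTPase, fell, at -3.04 and -2.46, and *Gbp5* was at -3.19 without FL sample 1. *Irf7*, which encodes a factor of interferon signalling, fell by 1.12 on the log2 scale (adjusted p = 5.2e-07). *Isg15* was not called (-0.32, adjusted p = 0.411). *Ifit1bl1* (ENSMUSG00000079339, chromosome 19 from 34592891 to 34601956, minus strand), a member of the IFIT family, had no count in any FL G1-ILC sample and 76.7, 75.1, 55.8 and 52.2 CPM in AL 7R- ILC1s. With 3 counts over the group as the limit of a count of 0, it was at least 344-fold lower, or at least 203-fold without FL sample 2 with 3.

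The interferon-stimulated response element was searched on both strands as TTTC, any 2 bases and TTTC. Of the interferon-stimulated genes 22 of 34 promoters (64.7%) held it, of all genes tested 307 of 9440 promoters (3.25%) and of all genes with a promoter 943 of 27025 promoters (3.49%). The promoters of *Ifit1* (chr19:34640639-34640938, plus strand) and *Ifit3* (chr19:34583279-34583578, plus strand) are shown as examples with the element in capitals.
Ifit1: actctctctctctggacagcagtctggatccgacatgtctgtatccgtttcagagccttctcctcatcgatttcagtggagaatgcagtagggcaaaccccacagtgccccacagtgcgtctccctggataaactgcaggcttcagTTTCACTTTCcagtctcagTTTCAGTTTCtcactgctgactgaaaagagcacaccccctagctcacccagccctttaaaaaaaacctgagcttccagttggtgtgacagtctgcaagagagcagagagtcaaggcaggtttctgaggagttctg
Ifit3: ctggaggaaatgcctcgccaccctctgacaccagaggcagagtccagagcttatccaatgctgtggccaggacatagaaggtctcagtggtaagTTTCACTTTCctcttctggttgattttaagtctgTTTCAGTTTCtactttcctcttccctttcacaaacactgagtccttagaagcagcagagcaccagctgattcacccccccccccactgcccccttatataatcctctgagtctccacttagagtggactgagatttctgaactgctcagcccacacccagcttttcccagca

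MHC class I and peptide loading genes were 15 lower and 3 higher of 25, and summed to 16140 to 17580 CPM in FL G1-ILCs and 26100 to 28170 CPM in AL 7R- ILC1s. *B2m* had 2906, 3183 and 3040 CPM in FL G1-ILCs, against 5639, 5317, 5546 and 5276 CPM in AL 7R- ILC1s (log2 fold change -0.84, standard error 0.07, adjusted p = 2.19e-10), and *H2-K1* had 1873, 2125 and 2143 CPM in FL G1-ILCs, against 4653, 3907, 3980 and 3979 CPM in AL 7R- ILC1s (log2 fold change -1.01, standard error 0.07, adjusted p = 1.18e-11). *H2-T23*, which encodes Qa-1, and *H2-Q7* fell, at -1.59 and -1.16. Their regulator gene *Nlrc5* fell by 0.92 (adjusted p = 7.74e-08), whereas *Tap1*, the peptide carrier gene, had 0.01 and was not called. Inflammasome and PYHIN genes, a list written after the values were seen, were 13 lower and 1 higher of 17, with *Casp1*, the inflammasome protease gene, at 6.78, 12.7 and 4.14 CPM in FL G1-ILCs, against 57.03, 79.2, 63.95 and 74.6 CPM in AL 7R- ILC1s. *Ifi213*, a PYHIN gene, fell by 3.63 on the log2 scale, and *Casp1* had -3.06, or -3.70 without FL sample 2 with 3. Of 19 GIMAP and interferon GTPase genes, a list of the same kind, 18 were lower and 0 higher.

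The IFITM genes, which interferons can also induce, were higher. *Ifitm1* (ENSMUSG00000025491, chromosome 7 from 140967221 to 140969825, plus strand), which encodes a membrane protein that blocks virus entry and marks early germ and stem cells in the mouse, had 254, 313 and 269.8 CPM in FL G1-ILCs, against 2.65, 0.179, 3.53 and 2.13 CPM in AL 7R- ILC1s (log2 fold change 7.02, standard error 0.33, adjusted p = 2.07e-13). *Ifitm2* and *Ifitm3* rose by 3.94 (standard error 0.49, adjusted p = 1.37e-05) and 4.10 (standard error 0.56, adjusted p = 4.8e-06). *Ly6c2* had 185, 199 and 284 CPM in FL G1-ILCs, against 6.37, 4.66, 3.53 and 10.4 CPM in AL 7R- ILC1s, and *Lgals3*, which encodes galectin-3, had 402, 518 and 582 CPM in FL G1-ILCs, against 67.9, 58.9, 76.4 and 45.8 CPM in AL 7R- ILC1s (log2 fold change 3.00, standard error 0.16, adjusted p = 6.64e-13). Of this list of 23, which also holds LY6 and S100 genes, 12 were higher and 3, *Ly6e*, *Ly6g5b* and *S100a6*, lower. *S100a6* (-0.31) lost its call without FL sample 1 or 4 or adult sample 1 or 3 (adjusted p = 0.0582 to 0.151). *Ly6g5b* (-3.12) was at -5.52 without FL sample 2 with 3. Among the higher ones, *S100a8* and *S100a9* had their levels in FL samples 1 and 4, as the neutrophil markers did. *S100a4* was not called (-0.15).

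Genes of survival and cell death differed in both directions, with 7 higher and 8 lower of 20 tested, or 75% called against 47.7% of all genes tested. *Bcl2* had 939, 993 and 978 CPM in FL G1-ILCs, against 1487, 1663, 1648 and 1493 CPM in AL 7R- ILC1s (log2 fold change -0.70, standard error 0.07, adjusted p = 6.79e-09), and *Mcl1* and *Bcl2a1b*, which also encode survival proteins, fell, at -0.78 and -4.26. *Pmaip1*, which encodes the death protein NOXA, had 23.3, 40.8 and 37.3 CPM in FL G1-ILCs, against 2.92, 1.97, 0 and 0.267 CPM in AL 7R- ILC1s (log2 fold change 4.76, standard error 0.68, adjusted p = 4.81e-06, and 5.43 without adult sample 1). *Bcl2l11*, which encodes BIM, was not called (-0.09).

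Of 22 glucocorticoid and circadian genes, 8 were lower and 3 higher, or 50% called against 47.7% of all genes tested. *Nr1d2*, which encodes the clock repressor REV-ERBβ, had 3.19, 12.7 and 7.36 CPM in FL G1-ILCs, against 50.4, 56.97, 60.4 and 76.7 CPM in AL 7R- ILC1s (-2.94, and -3.62 without FL sample 2 with 3), and the clock output gene *Dbp* fell by 2.15 on the log2 scale (adjusted p = 9.75e-05). The hour of tissue collection is not given in the sources used here. *Sgk1*, a kinase gene induced by glucocorticoids, was higher, with 133, 146 and 109 CPM in FL G1-ILCs, against 5.04, 3.40, 1.53 and 2.93 CPM in AL 7R- ILC1s (log2 fold change 5.40, standard error 0.26, adjusted p = 2.96e-13). Of 32 immediate early and AP-1 genes, 11 were lower and 6 higher, or 53.1% called against the same 47.7%. *Jun* had 37.9, 33.4 and 27.4 CPM in FL G1-ILCs, against 131, 139, 120.5 and 100.2 CPM in AL 7R- ILC1s and *Junb* rose by 0.62. *Nr4a1* had 40.6, 52.5 and 29.2 CPM in FL G1-ILCs, against 1.33, 1.97, 0.92 and 32.8 CPM in AL 7R- ILC1s, where adult sample 4 stood apart. Its call (log2 fold change 2.27, standard error 0.87, adjusted p = 0.0469) was lost in 12 of 20 other fits, those without FL sample 1, 2 with 3 or 4 and without adult sample 1, 2 or 3 among them (adjusted p = 0.0595 to 0.135), and without adult sample 4 the change was 4.86 (adjusted p = 6.63e-08).

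Several of the 15 genes named for the largest falls at an average log2 CPM of 5 or more belong to no list above. *Atp8a2* (ENSMUSG00000021983, chromosome 14 from 59638540 to 60197179, minus strand), a lipid flippase gene, had 0, 0.766 and 0.92 CPM in FL G1-ILCs, against 277, 281, 246 and 249.7 CPM in AL 7R- ILC1s (log2 fold change -8.80, standard error 0.40, adjusted p = 5.89e-13). *Cpne7*, which encodes a calcium-binding copine, had 3.79, 7.20 and 1.84 CPM in FL G1-ILCs, against 233, 256, 236 and 239.8 CPM in AL 7R- ILC1s, and *Kcnj8*, a potassium channel gene, had 3.79, 2.30 and 3.68 CPM in FL G1-ILCs, against 136, 118, 138 and 97.5 CPM in AL 7R- ILC1s. *Gm14125*, annotated as a transcribed processed pseudogene, had 2.19, 3.37 and 3.22 CPM in FL G1-ILCs, against 172, 193, 180.3 and 199 CPM in AL 7R- ILC1s. Its level is uncertain too, as the counting of reads that match several genes is not given. *Dtx1*, a target and regulator of Notch, had 6.58, 5.51 and 5.75 CPM in FL G1-ILCs, against 85.95, 132, 141 and 118 CPM in AL 7R- ILC1s, and *Mmp9*, a matrix protease gene, had 11.6, 0.153 and 0 CPM in FL G1-ILCs, against 49.9, 91.7, 104 and 96.2 CPM in AL 7R- ILC1s. Of 16 tested Notch pathway genes, a list written after the values were seen, 5 were lower and 2 higher. That is 43.8% called, against 47.7% of all genes tested. *Cd72* and *Wls*, which encode an inhibitory lectin and a carrier of WNT proteins, fell, at -4.25 and -3.94, *Rab6b* by 4.21, and ENSMUSG00000089672, which has no name in the annotation used, by 4.08. Without FL sample 1 the fitted changes were -9.59 for *Mmp9* (-4.50 with it), -5.93 for *Rab6b* and -4.89 for *Wls*, and without FL sample 2 with 3 that of *Cpne7* was -6.45 (-5.71 with it) and that of *Mmp9* -3.89. The nuclear RNA *Malat1* had 825, 972 and 948 CPM in FL G1-ILCs, against 3511, 3390, 3775 and 3673 CPM in AL 7R- ILC1s. Among higher genes outside the lists were *Stmn1*, which encodes a regulator of microtubules (525, 549.9 and 541 CPM in FL G1-ILCs, against 23.9, 3.22, 23 and 7.99 CPM in AL 7R- ILC1s), and *Capg*, which encodes an actin capping protein (121, 149 and 140.1 CPM in FL G1-ILCs, against 9.81, 6.45, 5.21 and 5.33 CPM in AL 7R- ILC1s), both chosen after their values were seen.

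Lists of ILC1 and NK cell signature genes were also read. Of 19 tested ILC1 signature genes, 15 were lower in FL G1-ILCs and 1, *Ikzf2*, was higher (log2 fold change 0.85, standard error 0.16, adjusted p = 0.000105), with summed levels of 3421 to 3527 CPM in FL G1-ILCs and 6499 to 6975 CPM in AL 7R- ILC1s. *Tmem176b* and *Inpp4b* of this list fell, at -2.16 and -3.62, and *Ckb* was not called (0.07). Of 22 NK cell signature genes, 11 were higher and 5 lower. The higher ones include *Eomes*, *Klf2*, *S1pr1* and *Serpinb9b*, and the lower ones include 4 Ly49 genes and *Cd7*.

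Set against the mean of BM iILC1s, AL 7R+ ILC1s, AL NK cells and BM NK cells in the same fit, 6646 genes (49.5%) differed, 3704 higher and 2942 lower in FL G1-ILCs. The 2 comparisons share the FL G1-ILC samples, so the values are set side by side without a test of likeness. The mean gives equal weight to ILC1 and NK cell groups, so a value over it need not hold for each group. *Mki67* had log2 fold changes of 6.29 over AL 7R- ILC1s and 3.94 over the other adult groups, and *Igf2bp3* had 6.76 and 6.32. *Ldha* had 2.35 and 1.95, and *Ncr1* had -1.36 and -1.47. Other genes differed in sign, all called in both comparisons. *Cxcr6*, *Zfp683* and *Itga1* had -1.81, -1.29 and -1.49 over AL 7R- ILC1s and 2.91, 3.36 and 3.09 over the others. *Itga1* encodes CD49a, and the study gates NK cells as CD49a-negative, so the part of the gate in its value cannot be told apart. *Eomes*, *Klf2* and *Emb* had 3.11, 4.84 and 6.21 over AL 7R- ILC1s and -1.22, -1.10 and -2.27 over the others. *Gzma*, *Gzmb* and *Klra5*, with 0.95, 0.42 and 0.71 over AL 7R- ILC1s, had 3.41, 4.00 and 5.58 over the others.

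The Y-linked gene *Ddx3y* had 136, 112 and 127 CPM in FL G1-ILCs, against 187, 233, 262 and 213 CPM in AL 7R- ILC1s, and *Xist*, made by the inactive X chromosome of females, had 1.79, 0.306 and 1.38 CPM in FL G1-ILCs, against 5.30, 0, 3.07 and 3.73 CPM in AL 7R- ILC1s. Both groups of mice thus had Y-linked RNA and little *Xist*. *Ddx3y* was lower in FL G1-ILCs (log2 fold change -0.85, standard error 0.13, adjusted p = 5.63e-06).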

How the data were processed

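RNA of sorted cells was made into SMART-seq libraries. Per the labels and the submitters' processing notes, the authors used fastp 0.23.0 for trimming and HISAT2 2.1.0 with mm10 for alignment, and deposited raw counts per gene made by featureCounts of Subread 1.6.5. Strand, multimapping and the annotation are not given in the sources used here. The table held 46078 genes. The 935 identifiers without a name in GENCODE M21 held 0.104% of counts.

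Counts of the near-identical FL libraries 2 and 3 were summed. Genes were filtered (filterByExpr, minimum count 10) and scaled by TMM, and 6 groups were fitted with edgeR 4.0.16 (quasi-likelihood, R 4.3.3), with Benjamini-Hochberg adjustment over 13424 genes and a threshold of 0.05. The standard errors given are the absolute log2 fold change divided by the square root of the test's F statistic. They are approximate, above all for genes with few counts in a group. The fit was tested on data simulated with 200 changed genes, far fewer than were called here, so recovery in these data may differ. It recovered 13 of 64 genes changed 1.5-fold, 30 of 70 changed 2-fold and 50 of 66 changed 4-fold. Of its 97 calls 4 were false. A gene that was not called may thus still differ. DESeq2 1.42.0, other scalings, filters (minimum count 30), sample sets, thinning, an adjusted p of 0.01 and leaving out each sample were alternatives.

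Named genes were the 15 largest called changes in each direction at an average log2 CPM of 5 or more whose groups did not overlap, and members of gene lists. Members and lists were chosen with earlier results of these data known, and some lists were written after values were seen, as said beside them. An interval for few counts is exact and covers counting error only, and a count of 0 was set to 3 counts over the group as its limit. Results of some genes are not reported here.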

Additional observations from a re-analysis of the deposited data

Results flagged for a closer look

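Among 4 AL 7R- ILC1 samples, 21 of 271 values of named genes and list sums had their highest or lowest sample far from the other 3 by Dixon's criterion. Chance flags about 5 per 100. Of the flags, 7 fell on sample 1, 6 on sample 2, 4 on sample 3 and 4 on sample 4. FL G1-ILCs, with 3 samples, were not tested this way.

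Sample 1 was highest for *H2-K1* (4653 CPM), *Hk2* (1.33 CPM), *Serpinb9b* (1.59 CPM) and *S100a8* (0.265 CPM). It was lowest for *Inpp4b* (144.8 CPM), *Tnfrsf25* (2.12 CPM) and the sum of glucocorticoid and circadian genes (1548 CPM). Sample 2 was highest for *Fasl* (537 CPM), *Tcrg-C4* (179 CPM), the sum of GIMAP and interferon GTPase genes (11940 CPM) and the sum of ILC and NK cell transcription factors (12440 CPM), and lowest for *Ncl* (358.5 CPM) and *Xcl1* (315 CPM). Sample 3 was highest for *Serpinb6b* (211 CPM), *Slfn8* (196 CPM), *Tap1* (282 CPM) and *Mycn* (0.153 CPM). Sample 4 was highest for *Nr4a1* (32.8 CPM), where the other samples reached at most 1.97 CPM, for *Il7r* (4.53 CPM) and for *S1pr1* (0.267 CPM), and lowest for *Klrc1* (1422 CPM). The values of *Mycn*, *S100a8* and *S1pr1* each stand for a single count where the other 3 samples had none. The causes were not tested.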

How the results depend on the processing

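Of 219 named genes, 199 were called, and 180 of these kept their call and direction in each of 20 other settings. Genes called both in the fit of 6 groups and in another setting had the same sign in both, in each of the 20. DESeq2 called 6496 genes, 6334 of them among the 6403. Leaving out 1 sample gave 2637 (without FL sample 1) to 3181 higher and 2644 (without FL sample 4) to 3230 lower genes, and 2887 to 3729 higher and 2474 to 3391 lower genes over the other adult groups. A condition of at least 2-fold left 1622 higher and 1431 lower genes, and 1427 and 1306 over the other adult groups. Without FL samples 1 and 4, an alternative chosen after seeing the data, 1768 genes were lower over AL 7R- ILC1s and 1609 over the other adult groups, and *S100a8* (-1.65) and *Ltf* (-1.28) changed sign, with adjusted p of 0.843 and 0.873. That fit has a single FL sample and so fewer samples. Upper-quartile scaling moved the median of all genes by -0.10, and 44.3% of its calls were higher, against 52% with TMM. The counting depth, 2302643 to 6611584 per library, limits genes with few counts, such as *Mycn* and *S1pr1* in AL 7R- ILC1s.

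No sign of pairing by replicate number was seen. Correlations of deviations between same-numbered samples were -0.03, 0.02 and -0.01, and those of other pairs ran from -0.034 to 0.048. The summed FL sample stood for number 2, so number 3 could not be checked, and batches shared by number are not excluded. With the number as a replicate block, 6057 genes were called, 3197 higher and 2860 lower, 5951 of them also called without it.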
